A study of Mus musculus with 3 samples.

Results

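Endothelial cells, the cells that line the blood vessels, were examined in scRNA-seq of whole kidneys from FA-treated mice. A barcode counted as an endothelial cell when it had at least 1672 UMIs (unique molecular identifiers, each standing for 1 captured RNA molecule), 200 or more genes and no more than 50% of its UMIs from mitochondrial genes, and when at least 3 of the 6 endothelial genes Pecam1, Emcn, Flt1, Kdr, Plvap and Egfl7 were detected. Cells with more than 2 UMIs of the leukocyte genes Ptprc, Tyrobp and S100a8 together, or with more than 2 UMIs of the tubular genes Lrp2, Slc34a1 and Slc12a1 together, were left out. These conditions were met by 2354 of the 48404 cells that passed the UMI, gene and mitochondrial limits.

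All mice had received FA (folic acid, which injures the renal tubules), were 6 to 8 weeks old, and were examined at day 14. The genotypes compared were 2 Aoah-/- mice (labelled replicates 2 and 3) and 1 WT mouse (labelled replicate 3), with 1 library per mouse. Aoah-/- mice carry the mutated gene in all cells on a C57/BL6J background and lack acyloxyacyl hydrolase, which inactivates bacterial lipopolysaccharide, and WT mice were littermates. Kidneys were perfused, digested with collagenase, filtered and depleted of erythrocytes, so the share of a cell type also depends on how well it survives digestion. With 1 WT library no test across mice was made between genotypes, and differences from WT have no replicate check.

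The kidney holds several kinds of endothelium. Capillaries of the glomerulus are fenestrated filters that lie against podocytes and depend on VEGF from them, peritubular capillaries take up what the tubules reabsorb and have fenestrae closed by a diaphragm built of PLVAP, and the descending vasa recta carry blood into the medulla and exchange urea and water. Loss of peritubular capillaries is a known feature of kidneys that progress to fibrosis.

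The libraries held 167222984 UMIs in 25516 barcodes (Aoah-/- mouse 2), 161015021 UMIs in 24693 barcodes (Aoah-/- mouse 3) and 158551992 UMIs in 23072 barcodes (WT mouse 3). The lowest UMI total of a deposited barcode was 500, 1672 and 500 in this order, which is the order used for all values below, and the floor of 1672 UMIs put the libraries on the same footing. Endothelial cells gave 3407116, 5022505 and 2757674 UMIs. Their median depth was 3324.5, 3640.0 and 3487 UMIs with 1624, 1738 and 1660.0 genes per cell, so the 3 libraries were sampled to a similar depth in these cells. The median mitochondrial share was 5.73%, 5.71% and 7.18% in endothelial cells, below the 10.7%, 15.0% and 13.2% of all kept cells. Libraries shared between 171 and 176 barcode sequences pair by pair, and no endothelial cell had a barcode shared with an endothelial cell of another library.

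By the rule genes themselves, of the cells within the leukocyte and tubular limits, 7702 had none of the 6 endothelial genes, 1045 had 1, 145 had 2, 172 had 3, 320 had 4, 647 had 5 and 1215 had 6. The 145 cells just outside the limit of 3 genes and the 172 just inside it were the 2 smallest groups, and 51.6% of the endothelial cells had all 6 genes. The label was then checked against genes outside the rule. Since the 6 genes set the contrast with other cells, the comparison with the rest of the kidney is a description and no test was made. The genes with the highest ratio to all other kept cells were Igfbp3, Adgrl4, Ptprb, Mmrn2, Cdh5, Tek, Podxl, Gpihbp1, Esm1, Cyyr1, Ldb2 and Fam167b. Cdh5, the cadherin of endothelial junctions, stood at 705, 709 and 633 CPM (UMIs of a gene per 1000000 UMIs, summed over the cells) against 6.63, 13.2 and 3.55 CPM in the other cells of the same libraries. Ptprb, a phosphatase that restrains the angiopoietin receptor, stood at 1540.6, 1521 and 1547 CPM, and that receptor, Tek, at 333, 385 and 338 CPM. Gpihbp1, which holds lipoprotein lipase on the capillary wall, stood at 334, 346 and 329 CPM. Of 1531 genes with at least 100 CPM in every library, 180 were at least 10 times higher than in the other cells in all 3 libraries.

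The limits on tubular and leukocyte UMIs did not remove the same share of cells from each library. Of the barcodes with at least 3 endothelial genes, 23.1% (Aoah-/- mouse 2), 40.6% (Aoah-/- mouse 3) and 14.5% (WT mouse 3) exceeded a limit, mostly the tubular one. RNA of other kidney cells was therefore measured in the endothelial cells that stayed. The 12 proximal tubule genes summed to 2432, 2452 and 1835 CPM, which was 7.53%, 6.38% and 3.84% of their sum in the other cells of the same library, and Kap was the most abundant. The 10 leukocyte genes, led by Lyz2, summed to 182, 219 and 80.1 CPM. The 9 mural genes summed to 106, 62.9 and 19.6 CPM with Rgs5, which marks pericytes, as the most abundant gene. Other lists stood highest in WT. The fibroblast genes, led by Dcn, summed to 2.94, 3.98 and 147 CPM, and the erythroid genes, led by Hbb-bs, to 470, 2784 and 6657 CPM. Tubular, leukocyte and mural RNA was thus higher in the endothelial cells of both Aoah-/- libraries and fibroblast and erythroid RNA in those of WT, and their part in the differences between genotypes below was not tested.

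Endothelial cells made up 4.81% of kept cells in Aoah-/- mouse 2 (742 of 15441, 95% Clopper-Pearson interval 4.47% to 5.15%), 5.41% in Aoah-/- mouse 3 (1065 of 19692, 5.10% to 5.73%) and 4.12% in WT mouse 3 (547 of 13271, 3.79% to 4.47%). These intervals and all others here cover counting error only. Both Aoah-/- shares were above the WT share, by 0.99 percentage points on average with an SD of 0.43 between the Aoah-/- mice. The direction depended on the tubular and leukocyte limits. With no limit the shares were 6.25%, 9.11% and 4.82%, and with no tubular or leukocyte UMI allowed they were 2.0%, 2.01% and 2.09%, a difference of -0.089 points with the WT share the highest.

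**Figure D1:**
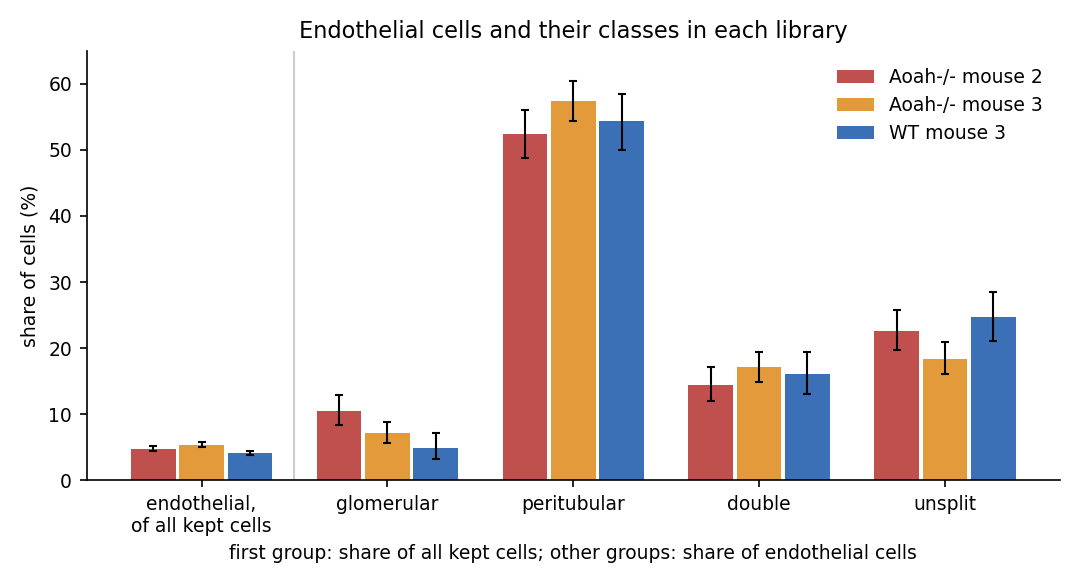
Share of endothelial cells among all kept cells (left) and of the 4 classes among endothelial cells thinned to 1672 UMIs (right), in percent, for each library. Bars are the shares of single libraries and error bars are 95% Clopper-Pearson intervals; the glomerular share was 10.5% and 7.14% in the Aoah-/- libraries and 4.94% in the WT library.

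Endothelial cells were then divided by Ehd3, an EHD family membrane protein known from glomerular capillaries, against Plvap and Igfbp3. Igfbp3, which binds insulin-like growth factors, is known from peritubular capillaries. A cell with an Ehd3 UMI and none of Plvap or Igfbp3 was called glomerular, one with Plvap or Igfbp3 and no Ehd3 peritubular, one with both double, and one with none unsplit. Over the 3 libraries this gave 183 glomerular, 1239 peritubular, 678 double and 254 unsplit cells. Classes follow 1 or a few UMIs per cell, so for shares each cell was thinned to 1672 UMIs. The glomerular share was then 10.5% (78 of 742, interval 8.40% to 12.9%), 7.14% (76 of 1065, 5.66% to 8.85%) and 4.94% (27 of 547, 3.28% to 7.10%), against 10.4%, 7.04% and 5.67% without thinning. The Aoah-/- mean was above the WT share by 3.89 points with an SD of 2.39 between the Aoah-/- mice, and the interval of Aoah-/- mouse 3 overlapped that of the WT library. The peritubular share was 52.4%, 57.4% and 54.3%, the double share 14.4%, 17.1% and 16.1%, and the unsplit share 22.6%, 18.4% and 24.7%. The WT peritubular and double shares lay between those of the Aoah-/- mice, and the WT unsplit share was above both.

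Detection of the dividing genes was set beside that in other cell types, where free RNA can give UMIs. Plvap is also 1 of the 6 genes that chose the endothelial cells, so its detection in them follows in part from the rule. After thinning, Ehd3 was detected in 24.9%, 24.2% and 21.0% of endothelial cells, against 0.53%, 1.23% and 0.19% of proximal tubule cells (median depth before thinning 8511, 4435.5 and 9441.5 UMIs) and 2.09%, 3.06% and 2.38% of leukocytes (4184, 3487.5 and 3872 UMIs). Plvap was detected in 55.3%, 64.0% and 62.2% of endothelial cells against 0.75%, 3.99% and 0.24% of proximal tubule cells. Igfbp3 was detected in 40.4%, 51.1% and 43.9% against 0.58%, 3.12% and 0.43%. Yet detection of Ehd3, by 1 or more UMIs, did not set cells apart from those with Plvap or Igfbp3. Plvap was detected in 54.1%, 67.1% and 75.7% of Ehd3-positive and in 55.7%, 63.1% and 58.6% of Ehd3-negative endothelial cells. With at least 3 markers besides Plvap required, it was detected in 54.1%, 67.6% and 75.4% against 55.5%, 62.8% and 58.1%. Igfbp3, which did not choose the endothelial cells, was detected in 40.0%, 52.3% and 52.2% of Ehd3-positive against 40.6%, 50.7% and 41.7% of Ehd3-negative cells. Detection of Ehd3 thus did not exclude that of Plvap or Igfbp3 in the same cell.

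The number of Ehd3 UMIs in a cell, counted before thinning, gave a sharper picture. Cells with 3 or more Ehd3 UMIs were 14.8%, 14.3% and 10.2% of endothelial cells. In them Plat, which encodes tissue plasminogen activator, stood at 1828, 1284 and 960 CPM, compared with 335, 295 and 178 CPM in cells with 1 Ehd3 UMI and 268, 178 and 177 CPM in cells with none. Gata5, a transcription factor known from glomerular endothelium, stood at 48.2, 41.7 and 38.0 CPM with 3 or more Ehd3 UMIs and at 1.92, 2.24 and 1.65 CPM with 1. With 2 Ehd3 UMIs Plat was still at 398, 309 and 163 CPM, so in Plat and Gata5 cells with 1 or 2 Ehd3 UMIs were closer to cells without Ehd3 than to those with 3 or more. Kdr, the main VEGF receptor, and Plvap are among the 6 genes that chose the cells, and their levels are given as a description. Kdr was higher with each step, from 505, 633 and 460 CPM with none to 991, 977 and 648 CPM with 1, and to 3004, 2938 and 2034 CPM with 3 or more. Plvap followed no such order. It stood at 856, 1147 and 940.0 CPM in cells with none, at 1502, 1631 and 1138 CPM with 1, at 1844, 1943 and 2464 CPM with 2 and at 1103, 1974 and 2417 CPM with 3 or more. It was thus lowest in cells without Ehd3 in all 3 libraries, and in Aoah-/- mouse 2 it was lower with 3 or more Ehd3 UMIs than with 1 or 2.

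**Figure D2:**
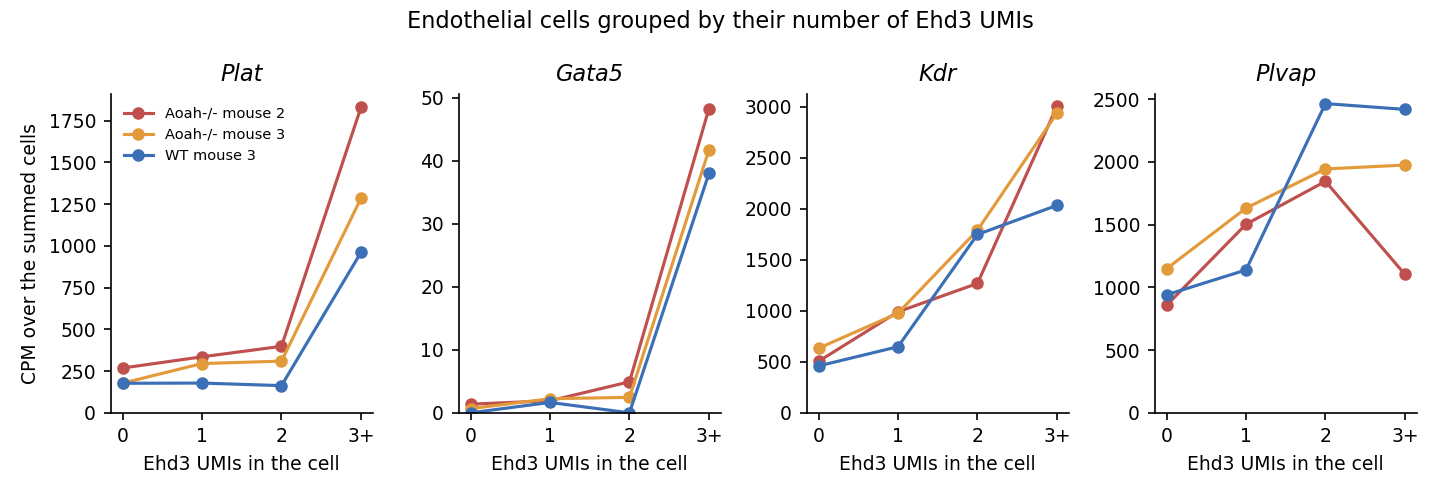
Level of Plat, Gata5, Kdr and Plvap in CPM (vertical axes, from 0) in endothelial cells grouped by the number of Ehd3 UMIs in the cell (horizontal axes), with 1 line per library. Plat and Gata5 were high in cells with 3 or more Ehd3 UMIs. Of the genes that chose the cells, Kdr was higher with each step, and Plvap was lowest in cells with no Ehd3 UMI, though in Aoah-/- mouse 2 it fell back with 3 or more.

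Double cells were close to peritubular cells in Plat. It stood at 216, 235 and 152 CPM in double cells, at 259, 180 and 168 CPM in peritubular cells and at 3092, 2787 and 1527 CPM in glomerular cells. Ehd3, which set the classes, stood at 460, 503 and 368 CPM in double cells and at 3216, 2595 and 1491 CPM in glomerular cells. Emcn, an endothelial surface mucin, stood at 3758, 3650 and 1867 CPM in glomerular cells against 1149, 1262 and 1141 CPM in peritubular cells, and at 1725, 1976 and 1748 CPM in double cells. Kdr stood at 1301, 1635 and 1159 CPM in double cells, between 547, 693 and 507 CPM in peritubular and 3465, 2944 and 1187 CPM in glomerular cells. Emcn and Kdr are among the 6 genes that chose the cells, so their levels by class are a description only. The WT glomerular cells, 31 in number, were the lowest of the 3 libraries in Ehd3, Plat and Emcn. Their Sox17, a transcription factor of arterial endothelium, stood at 591 CPM, against 188 and 296 CPM in the glomerular cells of the Aoah-/- mice and 705 CPM in WT peritubular cells. Whether the WT class held a larger part of cells from other vessels was not tested.

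The promoters of Ehd3 and Igfbp3, which set the classes, and of Gata5 are shown to let the sequences be read beside the levels. Of the genes ranked below, Gata5 had the largest difference towards glomerular cells. Each run is 300 bases from RefSeq on GRCm38.p6, from 250 bases before to 50 after the start of transcription, 5′ to 3′ on the strand of the gene. Capitals mark GGAA or its reverse complement TTCC, the core that ETS factors bind, since ETS factors act widely in endothelial genes. Ehd3 lies at chr17:73804591-73804890 on the plus strand, Gata5 at chr2:180334630-180334929 and Igfbp3 at chr11:7213874-7214173, both on the minus strand.
Ehd3: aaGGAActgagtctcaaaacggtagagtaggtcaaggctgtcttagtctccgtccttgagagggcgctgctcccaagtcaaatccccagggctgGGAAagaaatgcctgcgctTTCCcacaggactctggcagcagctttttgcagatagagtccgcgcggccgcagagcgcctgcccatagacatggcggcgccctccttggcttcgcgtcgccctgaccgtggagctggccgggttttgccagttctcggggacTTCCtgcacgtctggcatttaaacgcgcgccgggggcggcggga
Gata5: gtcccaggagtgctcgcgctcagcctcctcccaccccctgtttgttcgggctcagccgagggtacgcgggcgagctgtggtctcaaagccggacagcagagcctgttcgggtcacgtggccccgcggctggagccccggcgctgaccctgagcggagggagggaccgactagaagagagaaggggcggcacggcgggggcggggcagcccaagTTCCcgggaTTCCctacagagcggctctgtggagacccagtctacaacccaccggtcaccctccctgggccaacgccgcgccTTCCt
Igfbp3: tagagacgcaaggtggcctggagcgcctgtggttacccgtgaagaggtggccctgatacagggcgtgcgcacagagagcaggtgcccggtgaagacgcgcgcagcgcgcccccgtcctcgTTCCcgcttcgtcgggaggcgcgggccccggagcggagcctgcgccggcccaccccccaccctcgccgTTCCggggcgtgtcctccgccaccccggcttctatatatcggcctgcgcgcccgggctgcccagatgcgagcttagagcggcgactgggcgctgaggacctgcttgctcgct
The core occurred 4, 3 and 2 times in these windows, and in 96.0% of all 32851 promoter windows of this length, with a median of 3. The window of Npr3, which was higher in peritubular cells, held no such core. Longer motifs were searched on both strands in the same way. The ETS motif ACCGGAAG occurs in 2.30% of all windows, the ETS motif ACAGGAAG in 3.58%, the GATA factor motif AGATAA in 11.2% and the T-box motif AGGTGTGA in 1.28%, and none of these letters is in the 3 windows shown. Plvap and Plat had no entry.

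Between glomerular and peritubular cells of the same 3 mice, 248 of 8554 genes were higher in glomerular cells (2.9%) and 249 were higher in peritubular cells (2.91%) at an adjusted p under 0.05 (edgeR quasi-likelihood test on summed UMIs with the mouse as a block), 5.81% in either direction. The counts rested on few cells and moved with the library left out: without Aoah-/- mouse 2 they were 111 and 99, without Aoah-/- mouse 3 they were 66 and 44, and without WT mouse 3 they were 387 and 412. With the glomerular class limited to cells with 3 or more Ehd3 UMIs, an alternative chosen after seeing the data, they were 439 and 539. The 6 endothelial genes, Ehd3, Igfbp3 and the 6 capped genes were kept out of the test. The glomerular sums held 819660 UMIs and the peritubular sums 5955394 UMIs.

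Genes were ranked among those that passed the test, reached 50 CPM in a class and had the same direction in all 3 libraries. The 12 with the largest difference towards glomerular cells were Gata5, Sema5a, Meg3, Olfml2b, Tiam1, Lpl, Plat, Casc4, Fam101a, Dlk1, Mapt and Ddit4l. Gata5 stood at 79.7, 85.7 and 65.6 CPM in glomerular cells and at 1.07, 0.77 and 0 CPM in peritubular cells (log2 difference 6.59, SE 0.49, edgeR adjusted p = 1.67e-05). Plat stood at 3092, 2787 and 1527 CPM against 259, 180 and 168 CPM (log2 difference 3.52, SE 0.15, edgeR adjusted p = 6.28e-07), so that the lowest glomerular value was far above the highest peritubular one. Lpl, the lipase that hydrolyses triglycerides of lipoproteins, stood at 481, 420 and 221 CPM against 26.8, 30.7 and 29.0 CPM (3.63, SE 0.20, edgeR adjusted p = 3.57e-06). Its anchor Gpihbp1 did not pass the test, at 383, 485 and 107 CPM against 233, 288 and 311 CPM (0.13, SE 0.31, edgeR adjusted p = 0.90), though it passed without WT mouse 3 (0.67, edgeR adjusted p = 0.00598). Sema5a, a guidance molecule, stood at 185, 254 and 179 CPM against 6.44, 4.99 and 5.39 CPM. Meg3, a long noncoding RNA, and Dlk1, a Notch-like surface protein, come from the same imprinted cluster and both were in this group, with log2 differences of 5.09 (SE 0.42) and 3.11 (SE 0.49). Dlk1 lost its call without Aoah-/- mouse 3. Mapt, the microtubule protein tau, differed by 3.06 (SE 0.22).

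The 12 genes with the largest difference towards peritubular cells, ranked in the same way, were Slc14a1, Rgcc, Aqp1, Hpgd, Lef1, Ptn, Npr3, Igf1, Atp6v1g3, Scin, Prss23 and Aplnr. Slc14a1, the urea transporter of the descending vasa recta, had no UMI in glomerular cells and stood at 255, 207 and 179 CPM in peritubular cells, at least 58.8-fold higher when set against a floor of 3 UMIs over all glomerular cells. The water channel Aqp1 stood at 925, 920.0 and 790.1 CPM against 12.8, 2.96 and 41.8 CPM (log2 difference -5.92, SE 0.39, edgeR adjusted p = 1.24e-05). Rgcc, a cell cycle regulator known from capillaries, had 2 UMIs in glomerular cells and 1968 in peritubular cells, a ratio of CPM of 135 with a counting interval of 37.4 to 1119. Npr3, the clearance receptor for natriuretic peptides, had 2 and 410 UMIs (ratio 28.2, interval 7.76 to 234), and Igf1, insulin-like growth factor 1, 3 and 561 (25.7, interval 8.76 to 125). Aplnr, the apelin receptor, stood at 81.5, 135 and 56.6 CPM against 9.56, 11.8 and 0 CPM. Slc14a1 and Hpgd, which degrades prostaglandins, lost their calls when Plvap alone marked peritubular cells (log2 differences -0.94 and -0.40), and Ptn lost its call when classes were set after thinning (-0.45).

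**Figure D3:**
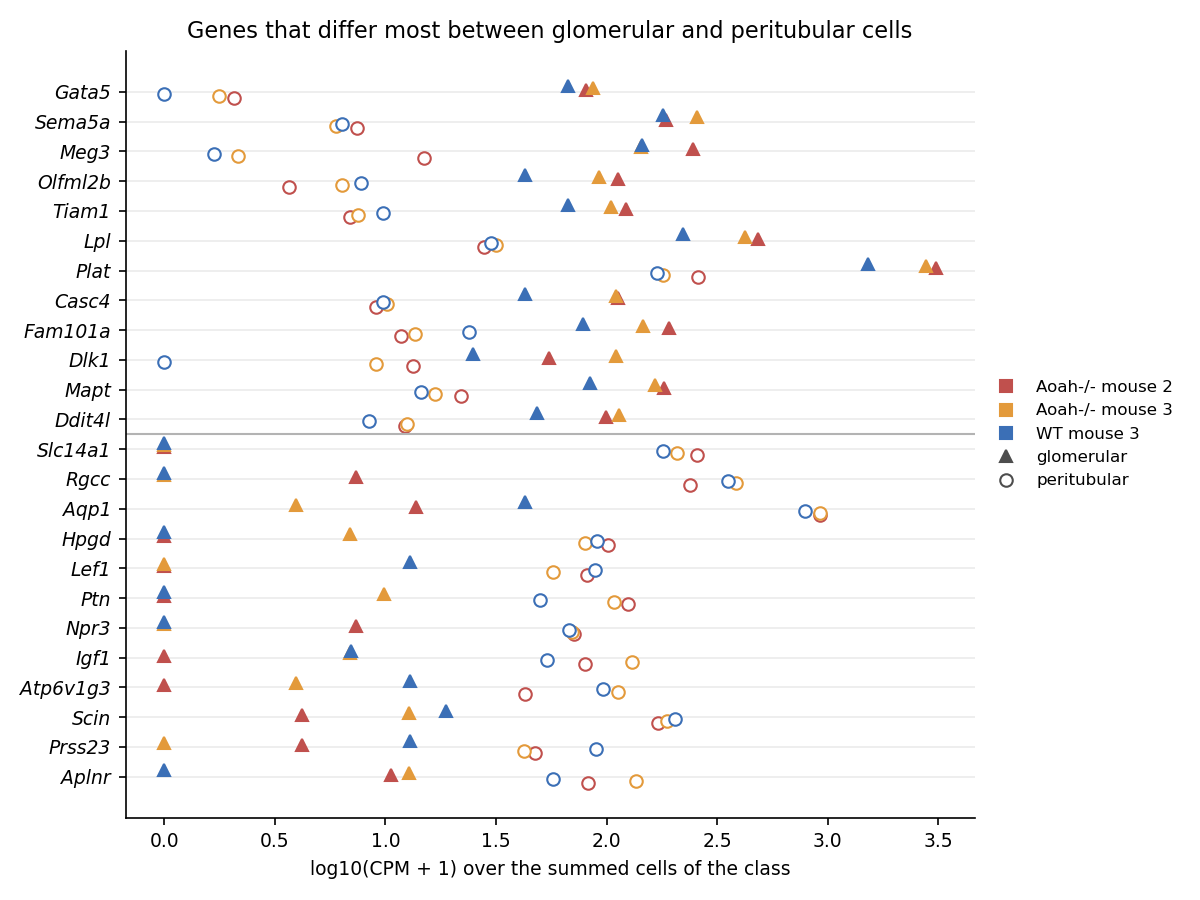
Levels of the 12 genes highest in glomerular cells (upper rows) and the 12 highest in peritubular cells (lower rows), as log10(CPM + 1), with 1 triangle per library for glomerular cells and 1 open circle for peritubular cells. The genes were chosen for the same direction in all 3 libraries. The triangles and circles of a gene do not overlap in any of the 24 rows, and Slc14a1 was at 0 in the glomerular cells of all 3 libraries.

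The 9 genes of the glomerular endothelial list (Sost, Plat, Lpl, Pi16, Gata5, Tbx3, Smad6, Mapt and Dkk2) were all higher in glomerular cells, with a median log2 difference of 2.33 against -0.03 over all genes tested. Like all lists here, this list was chosen with earlier results of these data known. Its agreement is therefore a description and no independent check of the class. Tbx3, a T-box repressor, stood at 500.4, 470.0 and 262 CPM against 85.3, 83.6 and 64.0 CPM (2.33, SE 0.15, edgeR adjusted p = 1.2e-05). Pi16, a peptidase inhibitor, stood at 787, 884 and 877 CPM against 215, 202 and 254 CPM, with the WT library as high as the others. Dkk2, a Wnt antagonist, differed by 1.54 (SE 0.14). Sost, another Wnt antagonist, had the largest adjusted p of the list (1.96, SE 0.46, edgeR adjusted p = 0.027) and lost its call without Aoah-/- mouse 3 and with Plvap alone as the peritubular marker. The 7 genes of the capillary list did not move together. Nrp1, a VEGF coreceptor, and Igfbp5, which binds insulin-like growth factors, were higher in glomerular cells, by 1.97 (SE 0.16) and 1.30 (SE 0.14). Rgcc, Npr3 and Igf1 were higher in peritubular cells. Gpihbp1 and the fatty acid transporter Cd36 did not pass the test.

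VEGF genes differed in both directions between the classes, and the BMP and TGF-beta genes that passed the test were all higher in glomerular cells. Over all genes tested 2.9% were higher in glomerular and 2.91% in peritubular cells. Of 8 VEGF and angiopoietin genes tested, Nrp1 and Vegfa were higher in glomerular cells (Vegfa by 1.66, SE 0.22, edgeR adjusted p = 0.001), Nrp2 was higher in peritubular cells (-0.95, SE 0.21, edgeR adjusted p = 0.022), and 5 did not pass the test, among them Tek (-0.19, SE 0.14) and Flt4 (0.16, SE 0.25). Of 11 BMP and TGF-beta genes tested, 4 were higher in glomerular cells and none in peritubular cells. These were the inhibitory Smads Smad6 (2.05, SE 0.23) and Smad7 (0.83, SE 0.14), the coreceptor Eng (0.93, SE 0.11) and the BMP target Id3 (0.55, SE 0.11). Of 8 Notch genes 1 passed, the ligand Dll4, higher in glomerular cells (0.64, SE 0.15, edgeR adjusted p = 0.034). Of 24 pan-endothelial genes 4 were higher in glomerular and 4 in peritubular cells, and Cdh5 differed by 0.12 (SE 0.13, edgeR adjusted p = 0.77).

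Genes of haemostasis and lipid handling were divided between the classes, where 5.81% of all genes tested passed in either direction. Of 8 coagulation genes tested, Plat and F8, coagulation factor VIII (1.40, SE 0.19), were higher in glomerular cells. Thbd, thrombomodulin (-1.06, SE 0.21), and Entpd1, which degrades extracellular ATP (-1.32, SE 0.21), were higher in peritubular cells. Of 7 lipid uptake genes tested, only Lpl was higher in glomerular cells, while Fabp4 and Fabp5, which carry fatty acids, and Tcf15, a transcription factor of capillary fatty acid transport, were higher in peritubular cells. Fabp4 differed by -2.15 (SE 0.16, edgeR adjusted p = 1.6e-05). Of 10 leukocyte adhesion genes tested, Vcam1 (-1.96, SE 0.30), Jam2 (-1.77, SE 0.33) and Cd34 (-0.64, SE 0.15) were higher in peritubular cells and none was higher in glomerular cells. Among 7 chemokine ligands, Cx3cl1, the membrane-bound ligand of monocytes, was higher in glomerular cells (1.92, SE 0.17, edgeR adjusted p = 7.46e-05), as was Cxcl16 (1.43, SE 0.36), while Cxcl1 (-1.84, SE 0.35) and Ccl5 (-1.69, SE 0.44) were higher in peritubular cells.

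Of the 16 interferon-induced genes 10 were higher in peritubular cells and none was higher in glomerular cells, against 2.91% and 2.9% of all genes tested, with a median log2 difference of -0.77. The largest difference was that of Gbp2, a guanylate-binding protein (-1.67, SE 0.23, edgeR adjusted p = 0.0013), followed by Irf7 (-1.40, SE 0.17) and Ifit3 (-1.40, SE 0.22). Ly6a stood at 940.3, 1171 and 1802 CPM in glomerular cells and at 2312, 2511 and 2424 CPM in peritubular cells. Irf1 was the exception in sign and did not pass the test (0.26, SE 0.14). Of 10 MHC class I genes, the immunoproteasome subunits Psmb8 (-0.64, SE 0.15) and Psmb9 (-0.66, SE 0.17) were higher in peritubular cells and 8 did not pass. None of the 7 MHC class II genes tested passed. Of 14 immediate early and heat shock genes, which respond to tissue digestion, 4 were higher in peritubular cells (Fosb, Egr1, Nr4a1 and Hspa1a).

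**Figure D4:**
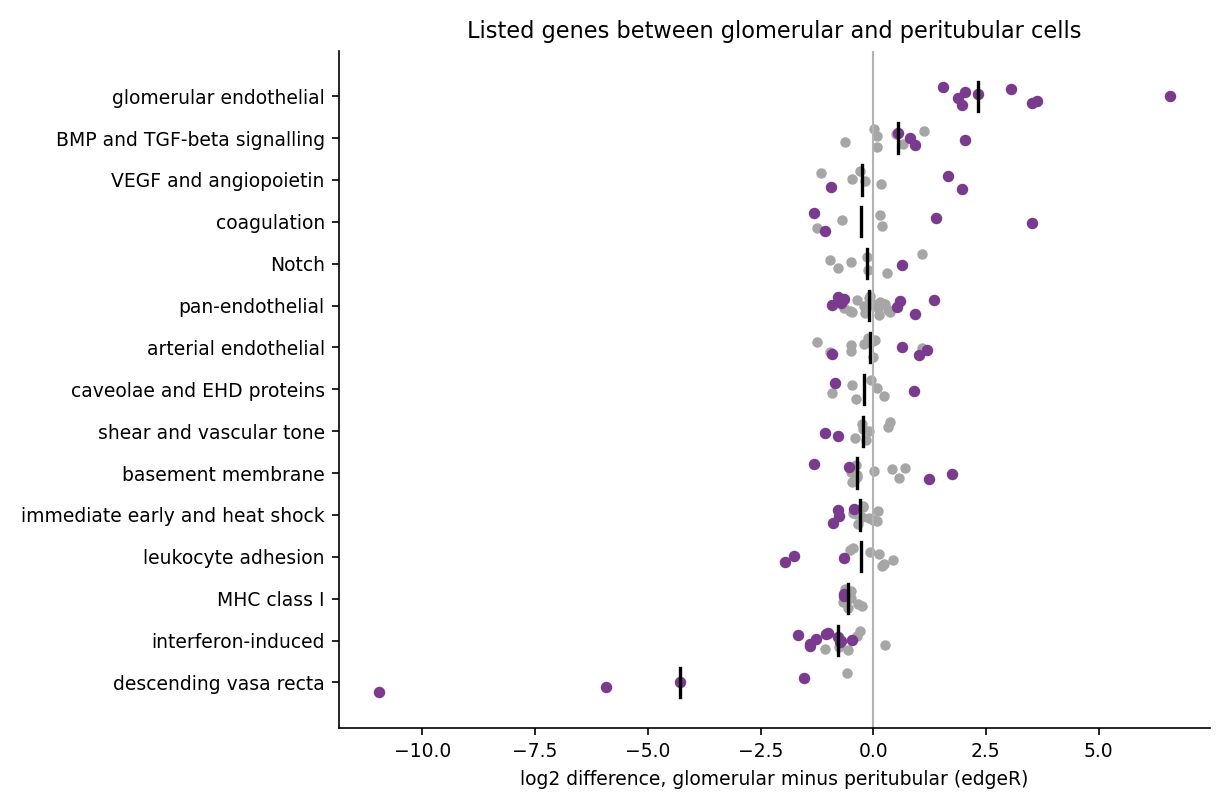
Log2 difference between glomerular and peritubular cells (horizontal axis; positive values are higher in glomerular cells) for the tested genes of 15 lists, with 1 point per gene. Purple points passed the edgeR test at an adjusted p under 0.05, grey points did not, and black bars are list medians; the medians ran from 2.33 (glomerular endothelial) to -4.28 (descending vasa recta), and the leftmost point, Slc14a1, had no glomerular UMI, so its fitted value is no bound.

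Some genes marked small groups of endothelial cells. The following subsets were chosen after their values were seen and are described without a test. Cells with a Slc14a1 UMI numbered 32, 59 and 31, which is 4.31%, 5.54% and 5.67% of endothelial cells. Their Aqp1 stood at 8868, 7973 and 6236 CPM, against 110.5, 47.6 and 112 CPM in the other endothelial cells. Their Plvap was low, at 239, 269 and 427 CPM against 1121, 1527 and 1268 CPM. Scin, an actin-severing protein, stood at 1125, 1172 and 915 CPM against 46.0, 52.4 and 79.4 CPM. Slc14a1, Aqp1 and Scin, all on the descending vasa recta list, were thus high together in the same few cells, and those cells were low in Plvap in all 3 libraries. Their Igfbp3 stood at 1027, 1210 and 1164 CPM, against 977, 1381 and 808 CPM in the other endothelial cells, so such cells could enter the peritubular class through Igfbp3, and the Slc14a1 level of that class, given above, shows that it was not made of peritubular capillaries alone.

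Cells with a UMI of Gja5, a connexin of arterial endothelium, numbered 66, 77 and 47. They overlapped with the cells just described, with Slc14a1 at 1148, 885 and 625 CPM against 24.5, 50.4 and 31.9 CPM in cells without Gja5, and Aqp1 at 4772, 4231 and 2929 CPM. They had Gja4, another arterial connexin, at 744, 655 and 746 CPM against 173, 128 and 197 CPM, and Sema3g at 943, 823 and 749 CPM against 300.0, 214 and 283 CPM. Their Plvap stood at 136, 121 and 228 CPM against 1194, 1609 and 1343 CPM. Cells with a Gata5 UMI numbered 26, 23 and 7. Their Ehd3 stood at 3442, 2481 and 2590 CPM and their Plat at 2551, 1634 and 4364 CPM, and Plvap was at 87.7, 110.4 and 0 CPM, so cells with Gata5 were high in Ehd3 and low in Plvap in all 3 libraries. Cells with an Igf1 UMI, in contrast, numbered 85, 157 and 60 and had Plvap at 1948, 2616 and 2133 CPM. Prox1, the defining transcription factor of lymphatic endothelium, was detected in 0.67%, 0.66% and 0.18% of thinned endothelial cells. Mki67, a gene of dividing cells, was detected in 0.81%, 0.66% and 0.18%. Both genes are of low abundance and the cells were chosen by genes of blood vessels, so these shares do not bound the number of lymphatic or dividing cells.

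Between genotypes, few genes met the limits set for a call in endothelial cells, and no test was made. Aoah itself had 0, 3 and 5 UMIs in endothelial cells, and it stood at 6.97, 6.42 and 18.7 CPM in the other cells of the same libraries. Aoah lies at chr13:20794113-21036617 on the plus strand (GRCm38). The part of the gene that is disrupted is not given in the sources used here, so these UMIs do not check the genotype. Of the 3682 genes that reached 50 CPM in either genotype, 12 were at least 2-fold higher in Aoah-/- (0.326%) and 10 at least 2-fold lower (0.272%), counting only genes for which both Aoah-/- libraries lay on the same side of WT by more than the gap between them in CPM. With that gap taken on the log2 scale, an alternative chosen after seeing the data, 17 were higher and 6 lower, and the 4 haemoglobin genes lost their calls. The median log2 difference over all genes was -0.01. With a single Aoah-/- library against WT, 20 genes were higher with mouse 2 alone and 32 with mouse 3 alone.

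Most of the called genes named below are known from other cells and differed in the same direction outside the endothelium. Clu and Fam107a were exceptions. Ptn was more abundant in endothelial cells, and in the other cells Aoah-/- mouse 2 was close to WT. The 8 largest rises were Tpm3-rs7, Umod, Cxcl2, Lyz2, Ptn, Spp1, Pck1 and Clu. Umod, uromodulin of the thick ascending limb, stood at 99.5, 154 and 21.4 CPM in endothelial cells and at 1068, 1266 and 525 CPM in the other cells. Lyz2, lysozyme of myeloid cells, stood at 71.3, 69.1 and 21.8 CPM against 1598, 1095 and 652 CPM. Cxcl2, a neutrophil chemokine, stood at 63.1, 78.6 and 20.3 CPM against 739, 389 and 218 CPM. Spp1, osteopontin, stood at 432, 452 and 165 CPM against 2377, 2899 and 1637 CPM. Each of these 4 was at least 3 times more abundant in the other cells, and their source in the endothelial cells was not tested. Clu, clusterin, stood at 195, 234 and 88.8 CPM in endothelial cells but at 350, 476 and 411 CPM in the other cells, where WT lay between the Aoah-/- mice.

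The 8 largest falls were Dcn, C3, Hbb-bt, Hba-a1, Hbb-bs, Gsn, Hba-a2 and Erdr1. Dcn, a matrix proteoglycan of fibroblasts, had 4, 1 and 263 UMIs, and it stood at 10.6, 12.2 and 454 CPM in the other cells. C3, complement component 3, stood at 6.16, 9.16 and 50.8 CPM, and Gsn, gelsolin, at 55.2, 48.4 and 199.8 CPM. The 4 haemoglobin genes had a gap between the Aoah-/- libraries that on the log2 scale was wider than the distance of Aoah-/- mouse 3 from WT, for example 287, 1360.3 and 3399 CPM for Hbb-bs, with 1284, 1734 and 3882 CPM in the other cells. Without the 10% of endothelial cells with the most UMIs the log2 differences of Dcn, C3 and Gsn shrank from -5.84, -2.58 and -1.93 to -1.23, -0.49 and -0.10, so these differences lay largely in the cells with the most UMIs. Tpm3-rs7, Erdr1 and the haemoglobin genes have near-identical copies, and their values are uncertain where reads could be split between them.

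Among the 1258 genes at least 2 times higher in endothelial than in other cells in every library, 2 were higher in Aoah-/- and 1 was lower. Tpm3-rs7, a tropomyosin-related sequence, stood at 67.5, 73.9 and 3.63 CPM, and at 27.2, 26.5 and 1.58 CPM in the other cells, so its difference was not particular to the endothelium. Fam107a, an actin-associated stress gene (chr14:8296274-8318023, minus strand), stood at 32.6, 21.7 and 62.4 CPM (log2 difference -1.17, SD 0.40 between the Aoah-/- mice), and at 7.27, 9.01 and 5.29 CPM in the other cells. Ptn, pleiotrophin, a heparin-binding growth factor (chr6:36714929-36810220, minus strand), stood at 82.2 (95% Poisson interval 72.8 to 92.4), 81.0 (73.4 to 89.3) and 28.6 CPM (22.7 to 35.7), and at 1.91, 5.04 and 1.86 CPM in the other cells. Its log2 difference was 1.48 with an SD of 0.01, and it was 0.90 to 1.49 over the settings tried in all endothelial cells or in peritubular cells, the lowest, under 2-fold, with no tubular or leukocyte UMI allowed. In glomerular cells Ptn stood at 0, 8.87 and 0 CPM, too low for a ratio.

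The Ptn difference sat in the Slc14a1-positive cells. In them Ptn stood at 584 CPM in Aoah-/- mouse 2 (161 UMIs, 95% Poisson interval 497 to 682), 601 CPM in Aoah-/- mouse 3 (255 UMIs, 530 to 680) and 18.8 CPM in WT mouse 3 (4 UMIs, 5.11 to 48.1). A Ptn UMI was found in 15 of 32, 22 of 59 and 1 of 31 of these cells. In endothelial cells without a Slc14a1 UMI Ptn stood at 38.0, 33.1 and 29.5 CPM, found in 18 of 710, 30 of 1006 and 13 of 516 cells. The WT value was thus apart from both Aoah-/- values in the Slc14a1-positive cells and close to them elsewhere. The median depth of Slc14a1-positive cells was 6861, 4869 and 4256 UMIs. Their Aqp1 and Scin, given above, were present in all 3 libraries, and the split was made after the values were seen, with 1 WT mouse.

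**Figure D5:**
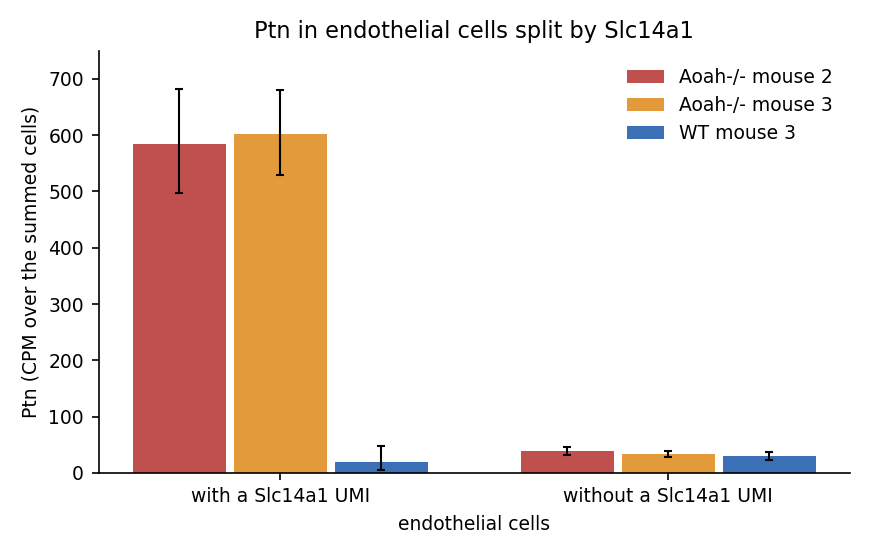
Ptn in CPM (vertical axis, from 0) in endothelial cells with and without a Slc14a1 UMI, with 1 bar per library and 95% Poisson intervals that cover counting error only. With a Slc14a1 UMI the Aoah-/- libraries stood at 584 and 601 CPM and the WT library at 18.8 CPM; without one the 3 libraries stood between 29.5 and 38.0 CPM.

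By gene groups, most endothelial lists had summed levels less than 2-fold apart between genotypes. Of all 3682 genes 35.2% had both Aoah-/- libraries above WT and 40% both below. The 24 pan-endothelial genes summed to 11280.2, 11275 and 11395 CPM (log2 difference -0.01). The interferon-induced genes summed to 10119, 10770.1 and 10430.2 CPM (0.002, SD 0.06), with 10 of 16 above WT in both Aoah-/- libraries and 1 below, and no gene called. The leukocyte adhesion genes summed to 1844, 2016 and 1837 CPM (0.07, SD 0.09). Some lists stood higher in both Aoah-/- libraries. The LPS recognition and MIF list summed to 743, 783 and 441 CPM (0.79, SD 0.05), led by Spp1, its only called gene, which was more abundant in the other cells. The venous list summed to 299.96, 298 and 231 CPM (0.37, SD 0.0051), the tip cell list to 1635, 2093 and 1461 CPM (0.35, SD 0.25) and the chemokine ligands to 457, 546 and 406 CPM (0.30, SD 0.18), with Cxcl2 called. In peritubular cells alone the chemokine ligands turned to -0.048, at 425, 506 and 482 CPM with WT between the Aoah-/- mice.

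The glomerular list and the basement membrane list were also higher in both Aoah-/- libraries, though no gene of either was called. The glomerular list summed to 1427, 1242 and 946 CPM (0.50, SD 0.14), and Ehd3 stood at 419, 346 and 203 CPM (0.91, SD 0.19). The share of glomerular cells, given above, moved with them. Of 6 glomerular list genes compared, 5 were above WT in both Aoah-/- libraries. The other, Pi16, was below WT in both, at 274, 238 and 293 CPM (-0.19, SD 0.14). Of the list genes too low to compare, Sost was below WT in both Aoah-/- libraries, and Gata5 and Mapt were above. Within glomerular cells the list summed to 6305, 5926 and 3669 CPM and within peritubular cells to 916, 855 and 752 CPM. Both Aoah-/- libraries were thus above WT in each class. Of the glomerular cells, however, 65 of 77, 61 of 75 and 18 of 31 had 3 or more Ehd3 UMIs. Sox17 in glomerular cells, given above, was highest in WT. Whether a different makeup of the glomerular class gave the lower WT sum was not tested. Of 12 basement membrane genes compared, 9 were above WT in both Aoah-/- libraries and none below. Col4a1, a chain of collagen IV, stood at 725, 949 and 582 CPM (0.52, SD 0.27), its partner Col4a2 at 399.8, 511 and 313 CPM (0.54, SD 0.25) and Hspg2, perlecan, at 377, 357 and 280 CPM (0.39, SD 0.06). The list summed to 4568, 5006 and 3904 CPM (0.29, SD 0.09), with no WT replicate to set this against. The mural genes, given above at 106, 62.9 and 19.6 CPM, moved the same way. Mural cells are known to make basement membrane too, and their part in this list was not tested.

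Listed genes of BMP signals and vascular tone stood on both sides of WT, and none of those compared differed by as much as 2-fold. Bmp2, a BMP ligand outside these lists, was called at least 2-fold lower in Aoah-/-. Its call held with the gap between the Aoah-/- libraries taken in CPM or on the log2 scale, and was not followed over the other settings. Bmp2 was not among the genes at least 2 times higher in endothelial than in other cells in every library. Of 10 BMP and TGF-beta genes compared, 6 were below WT in both Aoah-/- libraries and 4 above, among them Smad6 (0.29, SD 0.06), Tgfbr2 (0.26, SD 0.05) and Smad1 (0.23, SD 0.08). Of 8 shear and vascular tone genes 5 were below and 3 above. Id3 and Id1, targets of BMP signals, stood at 966, 961 and 1339.5 CPM (-0.47, SD 0.0044) and at 538, 553 and 719 CPM (-0.40, SD 0.03). Thbd stood at 409, 465 and 581 CPM (-0.41, SD 0.13), and Edn1, endothelin 1, at 281, 264 and 373 CPM (-0.45, SD 0.07). Tcf15 stood at 68.1, 72.1 and 106 CPM (-0.59, SD 0.06). The shear-responsive factors Klf2 and Klf4 were also lowest in Aoah-/- mouse 2 and highest in WT, at 1558, 2001 and 2125 CPM for Klf2, but the Aoah-/- libraries differed from each other by as much as from WT (SD 0.25).

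MHC class II genes did not separate the genotypes in endothelial cells. Cd74, the invariant chain, stood at 139.7, 291 and 140.0 CPM, so that Aoah-/- mouse 2 matched WT and Aoah-/- mouse 3 stood apart (0.62, SD 0.75). After thinning Cd74 was detected in 16.3%, 28.2% and 16.5% of endothelial cells, against 19.7%, 40.6% and 12.4% of proximal tubule cells and 62.8%, 54.6% and 56.6% of leukocytes. H2-Ab1, a class II chain, was likewise highest in Aoah-/- mouse 3, at 112, 202 and 109 CPM. The immediate early and heat shock genes also stood highest in Aoah-/- mouse 3, summing to 11973, 17010.2 and 13048 CPM (0.15, SD 0.36). The library of Aoah-/- mouse 3 was also the one that lost the largest share of its cells to the tubular and leukocyte limits.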

How the data were processed

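ScRNA-seq counts of 3 kidneys (10x Genomics 3′ libraries) were used. The authors deposited, for each library, a filtered matrix of UMI counts for 27998 genes without normalization. The submitters' processing notes name Cell Ranger 3.1.0, STAR, Seurat 4.2.0 and mm10, while the matrix headers carry version 6.1.2. The members and the 35 gene lists (315 genes, all found) were chosen with earlier results of these data known. UMIs were summed per library and class. Classes were compared with edgeR 4.0.16 (glmQLFit, TMM, filterByExpr, Benjamini-Hochberg), and DESeq2 1.42.0 was an alternative. A test on simulated data recovered 81.1% of genes changed 4-fold and 30.2% of those changed 2-fold over 8545 genes. The simulation used a dispersion of 0.05 for every gene, set and not estimated from these data, so these rates need not hold for the real counts. Genotypes were compared as log2 ratios with 1 CPM added. Genes named were the 12 with the largest differences each way between classes (at least 50 CPM, same direction in all libraries), the 8 called genes each way between genotypes, the same among endothelial-enriched genes, all glomerular and capillary list genes, and examples from the lists as the most abundant or most changed; mt-, Rp and Gm genes were skipped. Other list genes and the subsets by Slc14a1, Gja5, Gata5, Igf1 and Ptn were named after their values were seen. No doublet caller was run; the caps and an alternative without the 10% of cells with the most UMIs stand for it. Positions are from GENCODE on GRCm38 (mm10), promoters from RefSeq. Proximal tubule and leukocyte reference cells had at least 5 and 3 UMIs of their genes. The labels do not say more on the origin of the samples than 1 library per numbered mouse.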

Additional observations from a re-analysis of the deposited data

Results flagged for a closer look

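Some values differed between Aoah-/- and WT in opposite directions in the glomerular and the peritubular cells, in both Aoah-/- libraries. None of these differences between classes was tested, and the WT glomerular class held 31 cells. In log2 units (glomerular, then peritubular), 3 of the 4 haemoglobin genes of erythrocytes stood at 2.63 and -2.20 (Hba-a1), 2.52 and -1.95 (Hba-a2) and 2.91 and -2.34 (Hbb-bs), while the fourth, Hbb-bt, was lower in Aoah-/- in both classes (-0.63 and -2.11). The erythroid genes summed stood at 2.61 and -2.21. Spp1 stood at -0.51 and 1.46. The lymphatic genes summed at 1.59 and -0.50, the coagulation genes at 0.60 and -0.03, and the lipid uptake genes at 0.98 and -0.21. The proximal tubule genes stood at -0.041 and 0.46 and the mural genes at -1.21 and 2.12.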

How the results depend on the processing

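With 1 WT library, no value between genotypes has a replicate check, and the glomerular class is small. The endothelial share difference of 0.99 points moved to 1.56 with at most 20% mitochondrial UMIs, to 2.86 with no tubular or leukocyte limit and to -0.089 with none of these UMIs allowed; without 1 Aoah-/- mouse it was 0.68 to 1.29. The glomerular share difference stayed positive under all settings tried, 2.20 to 5.58 points, and was 3.66 with 3 or more Ehd3 UMIs, a setting chosen after seeing the data. Genes higher in glomerular and in peritubular cells numbered 135 and 92 with DESeq2, 127 and 134 with no tubular or leukocyte UMI, and 439 and 539 with 3 or more Ehd3 UMIs; with no filter on low counts 474 were higher in peritubular cells. Leaving out 1 library gave 66 to 387 and 44 to 412. Without the replicate block they were 247 and 215. Genotypes were not compared in pairs, since the labels do not say that equal replicate numbers mark a pair. Gpihbp1 and Cd36, which did not pass the test with all libraries, changed sign: Gpihbp1 to -0.13 with classes set after thinning, -0.17 with Plvap alone, -0.12 without the 10% of cells with the most UMIs and -0.27 to 0.67 without 1 library, the highest, without WT mouse 3, passing the edgeR test (adjusted p = 0.00598); Cd36 to 0.34 with no tubular or leukocyte UMI, 0.068 with 3 or more Ehd3 UMIs and -1.16 to 0.17 without 1 library.

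Between genotypes, 3 genes were higher and 6 lower at 100 CPM or more, 24 and 17 at 20 CPM or more, 17 and 6 with the gap between the Aoah-/- libraries on the log2 scale, and 274 and 233 in glomerular cells alone, where fewer UMIs were summed. The lower genes numbered 16 with no tubular or leukocyte UMI, 5 without the 10% of cells with the most UMIs and 4 with means per cell; the higher ones numbered 20 to 32 without 1 Aoah-/- mouse. In glomerular cells alone the log2 difference was -0.51 for Spp1, 0 for Dcn, 2.63 for Hba-a1, 2.52 for Hba-a2 and 2.91 for Hbb-bs. Of the gene lists whose difference exceeded the SD between the Aoah-/- mice, the sign changed in glomerular cells for BMP and TGF-beta (0.0033), Notch (-0.072), lipid uptake (0.98), LPS recognition and MIF (-0.19), proximal tubule (-0.041), mural (-1.21) and erythroid (2.61). It changed in peritubular cells for VEGF and angiopoietin (-0.012), coagulation (-0.026) and chemokine ligands (-0.048), and with no tubular or leukocyte UMI for pan-endothelial (0.00077). Lists within that SD, among them the arterial, descending vasa recta, lymphatic, interferon-induced and hypoxia lists, changed sign as well under some alternatives. The cause was not tested. Over the other alternatives, 444 values of class genes kept their direction and call. Of the values of genotype genes and of lists, 148 and 261 moved by less than the SD between the Aoah-/- mice and 51 and 78 by more.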
